A study of Homo sapiens and Mus musculus with 33 samples.

Results

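The genes described here were 6 genes of DNA mismatch repair, MSH6, MSH3, PMS1, PMS2, MLH3 and EXO1. They were taken by symbol from the RNA tables, in capitals among 35805 entries for the human colon cancer line HCT116 and in title case among 25965 entries for mouse colon epithelium. To these were added all histone mark peaks lying within the deposited gene intervals or up to 2 kb outside them. This gave 12 of 40266 peaks in the HCT116 list that H3K18cr and H3K18ac share, 7 of 30338 peaks in the colon H3K18cr list and 7 of 27035 peaks in the colon H3K4me3 list. All 6 genes were present in both RNA tables, all 6 passed the filter on low counts in HCT116, and each had at least 1 peak in every list.

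HCT116 is an established colon carcinoma line that is itself deficient in mismatch repair. The cells were given 5 µM MS275 (entinostat), an inhibitor of class I histone deacetylases, or DMSO alone for 18 h. RNA was sequenced from 4 cultures per treatment. Chromatin was immunoprecipitated for crotonylated (H3K18cr) and acetylated (H3K18ac) lysine 18 of histone H3, with 3 libraries per mark and treatment and 1 input library per treatment. Colon epithelium of C57BL/6 mice gave 3 RNA libraries, 2 H3K18cr libraries with 2 inputs, and 3 H3K4me3 libraries with 1 input. The study describes the colon RNA and H3K18cr libraries as coming from different mice and the H3K4me3 libraries as biological replicates, but its methods also describe pooling of colons for ChIP, so whether each colon ChIP library is 1 animal is unclear. The mice were male, and no age is given for those of the sequenced libraries in the sources used here.

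Mismatch repair corrects bases that DNA polymerase has mispaired and small loops left by slippage on repeats. MutS heterodimers recognise the error, MutL heterodimers are recruited to them and nick the new strand, and an exonuclease removes the stretch to be copied again. MSH6 and MSH3 are the alternative MutS subunits that decide whether single mismatches or larger loops are bound. PMS2, PMS1 and MLH3 are alternative MutL subunits, and EXO1 is the exonuclease. In the intestine this pathway is known above all from Lynch syndrome, an inherited predisposition to colon cancer.

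The libraries held 35608533 to 53415604 gene counts in HCT116 and 8166406 to 10707901 in colon. Reads in peaks ranged from 2236551 to 5730094 in the HCT116 ChIP libraries and from 1105419 to 3451663 in the colon ChIP libraries. Among the HCT116 RNA libraries, replicate 3 stood apart in both treatments, with a median Spearman correlation with the other libraries of 0.944 (DMSO) and 0.954 (MS275). In colon all 9 epithelial markers were detected at a mean of at least 1 CPM (gene counts scaled to a common library total), with a summed level of 10458 to 11804 CPM, against 61.6 to 73.7 CPM for 6 immune markers and 8.56 to 9.62 CPM for 6 stromal and vascular markers. In HCT116, 5 of 9 epithelial markers reached that level with DMSO and 6 of 9 with MS275. CDX1 was at 0 in both treatments and LGALS4 at 0 with DMSO. The summed stromal and vascular level in HCT116 was 5.50 to 8.37 CPM with DMSO and 10.6 to 17.9 CPM with MS275, and its part in the results below was not tested.

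Every one of the 6 genes had a peak over an annotated coding start in all lists. Among coding genes with a mean of at least 10 counts, 90.5% had such a peak (within 1 kb of a start) in the HCT116 list, 84.5% in the colon H3K18cr list and 91.7% in the colon H3K4me3 list. In GRCh38 the HCT116 start peaks lay at chr2:47782051-47784750 (MSH6), chr5:80653351-80656050 (MSH3), chr2:189783001-189785700 (PMS1), chr7:6008401-6010500 (PMS2), chr14:75050251-75051900 (MLH3) and chr1:241847101-241849500 (EXO1). Some of these peaks also cover the start of a gene that runs the other way, as at MSH3, PMS1 and PMS2. PMS1 shares its peak with ORMDL1, a regulator of sphingolipid synthesis, and PMS2 with AIMP2, a scaffold of the multi-tRNA synthetase complex. Reads in these peaks cannot be assigned to either gene of the pair.

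Sequence under the start peaks is shown because the marks were measured there. The RefSeq promoter window of each human gene (GRCh38.p14, 250 bases before the start to 50 after it) and the same window around the mouse starts of the GENCODE annotation (GRCm38) were searched on both strands for short motifs. For E2F, the factor family of genes expressed with replication, these were TTTCCCGC and 3 forms that differ from it at the inner bases, namely TTTGGCGC as well as TTTCGCGC and also TTTGCCGC. The other motifs were the GGGCGG box of SP1, the CCAAT box of NF-Y, the CHR element of late cell cycle genes and the NRF1 palindrome. Hits may overlap each other. Upstream stretches of MSH6 (chr2:47782895-47783081, plus strand) and PMS2 (chr7:6009131-6009254, minus strand) that lie outside annotated UTRs are given first, with every hit in capitals.
MSH6: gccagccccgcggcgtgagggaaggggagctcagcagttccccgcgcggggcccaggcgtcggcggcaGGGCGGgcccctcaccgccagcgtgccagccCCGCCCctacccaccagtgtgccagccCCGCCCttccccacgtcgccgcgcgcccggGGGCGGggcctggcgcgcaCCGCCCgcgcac
PMS2: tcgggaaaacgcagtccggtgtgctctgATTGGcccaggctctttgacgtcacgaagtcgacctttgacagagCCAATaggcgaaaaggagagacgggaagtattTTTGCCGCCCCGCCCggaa
The MSH6 stretch holds 5 GGGCGG boxes and no other hit. The PMS2 stretch, which lies between PMS2 and AIMP2, holds CCAAT on both strands and an E2F match that overlaps the first of 2 GGGCGG boxes.

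An E2F match was found in 4 of 6 human windows, against 3.31% of 35116 human promoters, and in 2 of 6 mouse windows, against 2.79% of 21911 mouse promoters. The matched sites of MSH6 (chr2:47783140-47783163, plus) and Msh6 (chr17:87975057-87975080, plus), and of EXO1 (chr1:241848200-241848223, plus) are given with the E2F letters in capitals.
MSH6: cccccagaTTTCCCGCcagcagga
Msh6: ctcccgacTTTCCCGCcagcggcg
EXO1: ggtcagccTTTCGCGCgctgtgta
MSH6 and Msh6 carried the match at the same distance, beginning 3 bases after the first base of the transcript. CCAAT was found in 3 of 6 human windows (34.6% of promoters) and in 4 of 6 mouse windows (39.0%). PMS1 (chr2:189784389-189784412, plus) and Pms1 (chr1:53297049-53297072, minus) held it 2 times each, shown here in its reverse form.
PMS1: tgccagcggATTGGctgcgagcag
Pms1: gagcagccgATTGGctgccagccg
MLH3 alone among the human windows held the NRF1 palindrome, in capitals here (chr14:75051506-75051529, minus), which 1.24% of promoters have.
MLH3: aactggtGCGCATGCGCactggtg
The CHR letters, TTTGAA, were in none of the 12 windows, against 15.2% of human and 16.4% of mouse promoters, and GGGCGG was in 5 of 6 human windows (45.0%) and 4 of 6 mouse windows (43.0%). A match describes letters and is no evidence of binding.

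The share of H3K18cr reads at the starts of the mismatch repair genes was lower in the MS275 libraries. The deposited values are reads scaled to the largest library, so every decrease in H3K18cr or H3K18ac given here is relative to the rest of the same library, and the total amount of either mark was not measured by these files. At the MSH6 start they were 223, 190 and 212 with DMSO and 126, 112 and 125 with MS275. At the PMS1 start they were 185, 179 and 161 with DMSO and 79.9, 123 and 87.0 with MS275. At the PMS2 start they were 128, 132 and 141 with DMSO and 57.4, 51.0 and 98.2 with MS275. In all of these every MS275 library lay below every DMSO library. At the EXO1 start the values were 142, 139 and 153 with DMSO and 92.2, 92.1 and 67.3 with MS275. At the MSH3 start they were 181, 164 and 138 with DMSO and 102, 106 and 78.6 with MS275. At the MLH3 start they were 115, 102 and 69.6 with DMSO and 64.1, 52.4 and 58.9 with MS275. The groups did not overlap at any of the 6 starts, which was so for 30.3% of all peaks tested and 61.97% of the 12788 peaks within 1 kb of a coding start. Input libraries held 29.99 to 48.2 scaled reads at these starts with DMSO and 28.3 to 52.4 with MS275, from 1 library each.

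**Figure D1:**
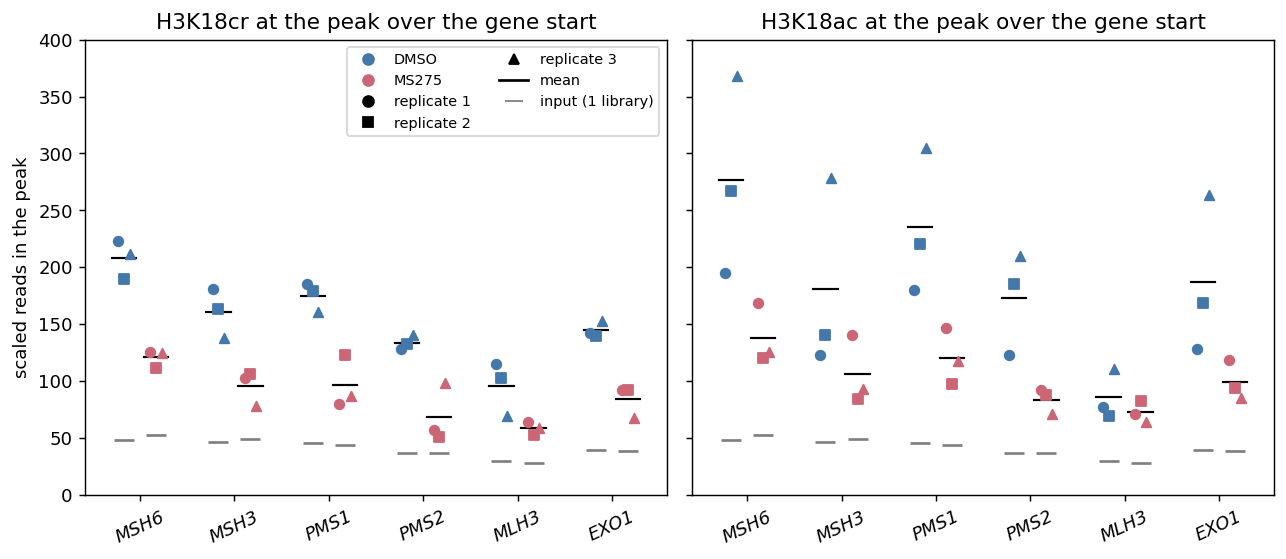
Scaled reads in the peak over each gene start (y axis) for H3K18cr (left) and H3K18ac (right) in HCT116 cells; points are single libraries, black bars group means and grey bars the single input libraries. For H3K18cr all MS275 points lie below all DMSO points at each gene, and for H3K18ac they do so at MSH6, PMS1, PMS2 and EXO1.

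With limma across all peaks, 5 of the 6 start peaks fell at an adjusted p under 0.05, where 14.2% of 39399 peaks were called lower and 0.355% higher. PMS2 fell by 1.02 on the log2 scale (SE 0.243, adjusted p = 0.0236) and PMS1 by 0.88 (SE 0.205, adjusted p = 0.0225). EXO1 fell by 0.80 (SE 0.190, adjusted p = 0.0233), MSH6 by 0.78 (SE 0.173, adjusted p = 0.0205) and MSH3 by 0.75 (SE 0.197, adjusted p = 0.0314). MLH3 gave a log2 difference of -0.68 (SE 0.218) and missed the threshold at an adjusted p of 0.0591. With edgeR on the recovered reads the same 5 starts were called (adjusted p 0.0149 to 0.0400), in a fit that called 13.9% of all peaks. MLH3 was again not called (adjusted p = 0.0787), and the log2 differences of the 6 starts were -0.72 to -0.47. The calls did depend on the kind of scaling and on single replicate numbers. After each library was centred on its median, which moved the median difference of all peaks from -0.20 to -0.01, limma called no H3K18cr peak lower anywhere (0%, with 18% lower at an unadjusted p under 0.05), the 6 starts had log2 differences of -0.83 to -0.49, and their adjusted p ranged from 0.0681 to 0.127. Without replicate 1, or without replicate 2, none of the 6 starts was called (lowest adjusted p 0.142 and 0.0644), in fits that called 0% and 0.677% of all peaks. Their log2 differences were then -0.95 to -0.60 and -1.05 to -0.54.

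The start peaks of other genes were lower too. The median log2 difference of H3K18cr was -0.79 over the 6 starts, -0.54 over 12788 peaks within 1 kb of any coding start (quartiles -0.75 and -0.30) and -0.08 over 26611 other peaks. Among all start peaks, 36.4% were called lower. PMS2 stood farthest from that median, with 4.48% of start peaks showing a larger decrease, and MLH3 nearest, with 32.7%. All 6 starts thus sat on the lower side of the median of start peaks, and whether they differ from other starts was not tested.

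H3K18ac followed the same direction at most of the genes. At the MSH6 start scaled reads were 195, 267 and 368 with DMSO and 169, 120 and 126 with MS275. At the PMS1 start they were 180, 220 and 305 with DMSO and 147, 97.3 and 117 with MS275. At the PMS2 start they were 123, 186 and 210 with DMSO and 92.2, 87.4 and 71.3 with MS275. MS275 libraries lay below DMSO libraries without overlap in each, although DMSO replicate 3 was the highest and DMSO replicate 1 the lowest of its group at all 3 genes. At the EXO1 start the values were 128, 169 and 264 with DMSO and 118, 94.0 and 84.9 with MS275, again without overlap. At the MSH3 start they were 123, 140 and 278 with DMSO and 140, 84.1 and 93.3 with MS275, and the groups overlapped. At the MLH3 start they were 77.0, 69.4 and 111 with DMSO and 71.4, 82.5 and 63.9 with MS275, and the groups overlapped as well. Non-overlap with MS275 below, seen at 4 of the 6 starts, was seen at 23.4% of all peaks tested and 50.03% of coding start peaks.

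By limma, 4 of 6 start peaks fell in H3K18ac, where 11.7% of 39479 peaks were called lower and 0.365% higher. PMS2 fell by 1.02 on the log2 scale (SE 0.264, adjusted p = 0.0141), MSH6 by 0.97 (SE 0.271, adjusted p = 0.0204), PMS1 by 0.95 (SE 0.267, adjusted p = 0.0207) and EXO1 by 0.87 (SE 0.275, adjusted p = 0.0381). With the replicate number as a block the EXO1 call was lost (adjusted p = 0.0623). MSH3 had a log2 difference of -0.71 (adjusted p = 0.114), and with edgeR on the recovered reads it was called (adjusted p = 0.0233), a fit in which 16.8% of peaks were called lower. MLH3 had a log2 difference of -0.22 with a 95% interval of -0.75 to 0.31. After median centring the same 4 starts were called (adjusted p 0.0191 to 0.0436, with 11.9% of peaks called lower), but without replicate 2, or without replicate 3, no start was called (lowest adjusted p 0.190 and 0.205), in fits that called 0% and 0.858% of all peaks. Without replicate 2 the log2 differences of the 6 starts were -0.99 to -0.45. Without replicate 3 they were -0.75 at PMS2, -0.74 at PMS1 and -0.68 at MSH6, while the log2 difference was -0.48 at EXO1 and -0.28 at MSH3, and without replicate 1 that of MSH3 was -1.16 and was called (adjusted p = 0.00126), as were 28.5% of all peaks. Over all coding start peaks the median log2 difference was -0.60, and 31.4% were called lower.

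With all replicates MLH3 was the gene at which the marks stood farthest apart, with -0.68 in H3K18cr and -0.22 in H3K18ac. The difference between the marks in their response was itself tested. At MLH3 it was -0.47 on the log2 scale (95% interval -1.17 to 0.24; -0.98 without replicate 3 and -0.091 without replicate 2), and at the other 5 starts it lay between -0.04 and 0.19. None was called, nor was any of 40237 peaks (0% by adjusted p, with 1038 or 2.58% at an unadjusted p under 0.05). The intervals of the other 5 reached at most -0.88 and 0.88, so differences of that size between the marks cannot be told from none here.

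**Figure D2:**
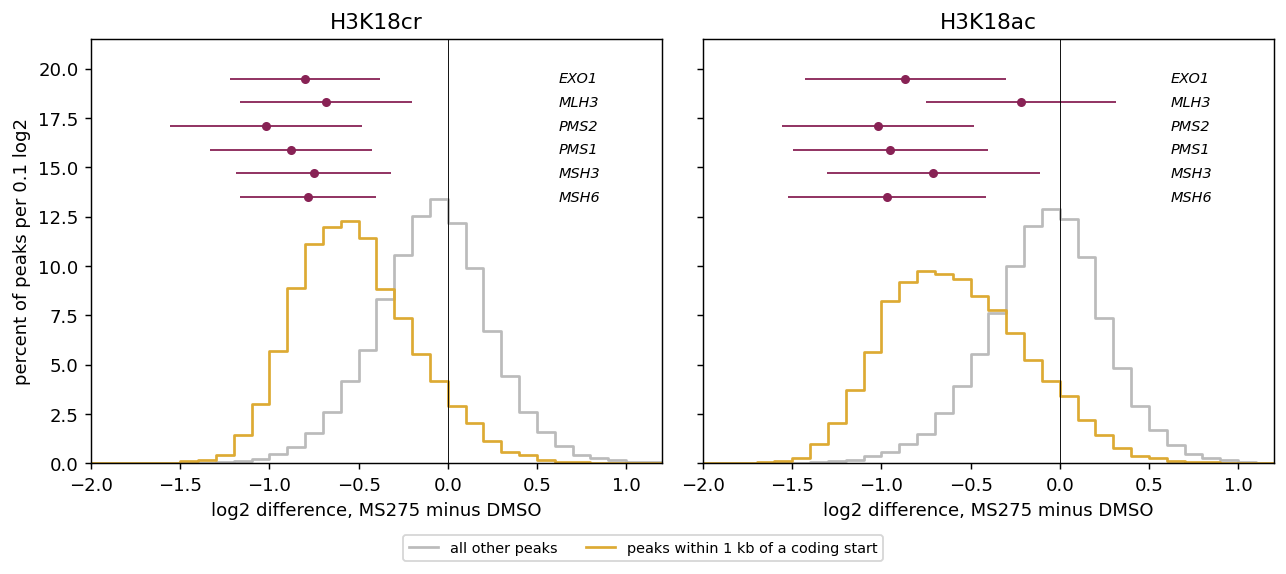
Log2 difference between MS275 and DMSO (x axis) for H3K18cr (left) and H3K18ac (right); lines give the percent of all start peaks and all other peaks per 0.1 log2 (y axis), and purple points with bars the 6 mismatch repair starts with 95% intervals, at arbitrary heights. The 6 starts lie at -1.02 to -0.68 in H3K18cr, where all start peaks have a median of -0.54, and only the MLH3 interval in H3K18ac crosses 0.

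With DMSO the mismatch repair starts carried above-median H3K18cr. The log2 ratio of ChIP to input (pseudocount of 1 scaled read) in DMSO ranged from 1.64 at MLH3 to 2.09 at MSH6, or the 51.8th to the 81.5th percentile of all start peaks. With MS275 it ranged from 0.89 at PMS2 to 1.19 at MSH6, the 26.1th to the 53.9th percentile. In H3K18ac the range was 1.48 at MLH3 to 2.50 at MSH6 with DMSO (39.0th to 89.1th percentile) and 1.08 at MSH3 to 1.44 at PMS1 with MS275 (43.2th to 74.1th percentile). MSH6 thus ranked first among the 6 in both marks with DMSO, and MLH3 last.

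The remaining 6 HCT116 peaks lay within MSH6 and MSH3. One of 1200 bases (chr2:47755201-47756400) lay in an intron of transcripts assigned to MSH6 that begin upstream of its main start, 26745 bases from the nearest coding start. MSH3 held 4 abutting peaks of 300 to 750 bases between positions 80780251 and 80782050 of chromosome 5 and another at chr5:80871151-80872350, all intronic. Mean H3K18cr there was 11.6 to 37.4 scaled reads with DMSO, against 95.7 to 208 at the starts. None of the 6 was called in H3K18cr, nor any of the 4 tested in H3K18ac, the other 2 having too few reads. In H3K18cr the MSH3 peak at chr5:80780551-80780850 was called with the replicate block (adjusted p = 0.0464), and the MSH6 intronic peak without replicate 3 (log2 -0.84, adjusted p = 0.0462, with 26.8% of all peaks called), against -0.50 with all replicates and -0.15 without replicate 2. At the MSH6 intronic peak H3K18cr was 30.0, 45.0 and 37.1 with DMSO and 21.4, 19.8 and 42.1 with MS275, while H3K18ac was 41.9, 40.7 and 28.3 with DMSO and 48.0, 52.8 and 30.4 with MS275. The groups overlapped in both marks.

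RNA of the 6 genes did not pass the test for a difference between MS275 and DMSO. Values are CPM after TMM scaling (edgeR's correction for library composition), given in the order of replicates 1 to 4. MSH6 RNA was 121, 78.4, 50.2 and 86.5 with DMSO and 97.7, 85.2, 51.7 and 81.5 with MS275. EXO1 RNA was 51.2, 30.6, 29.9 and 37.2 with DMSO and 59.3, 34.1, 30.8 and 31.9 with MS275. PMS1 RNA was 35.9, 37.5, 15.6 and 43.98 with DMSO and 36.7, 42.0, 22.7 and 41.6 with MS275. Groups overlapped for each, as for all 6 genes (5.37% of genes tested had groups that did not), and the libraries of replicate 3 were the lowest of both groups for all 3 genes. MLH3 RNA was 11.9, 12.8, 8.33 and 12.01 with DMSO and 13.7, 7.19, 8.90 and 12.1 with MS275. PMS2 RNA was 25.5, 18.0, 3.06 and 19.8 with DMSO and 23.2, 22.7, 8.13 and 19.8 with MS275. PMS2, which has near-identical pseudogenes to which reads can be split, had in replicate 3 only 106 raw counts with DMSO and 255 with MS275, against 689 to 1141 in the other 6 libraries. MSH3 RNA was 1.43, 1.56, 2.80 and 1.50 with DMSO and 1.64, 2.11, 2.10 and 1.23 with MS275, from only 53 to 97 raw counts per library. DMSO replicate 3, in which the other 5 genes had their lowest DMSO value, was the highest library for MSH3.

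**Figure D3:**
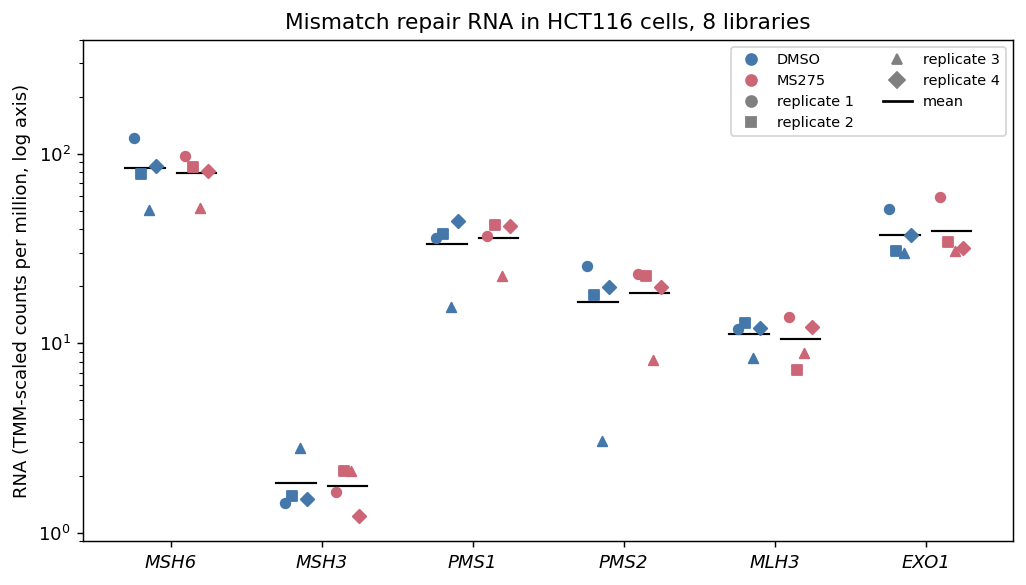
TMM-scaled CPM (log axis) of the 6 genes in 4 DMSO and 4 MS275 libraries of HCT116 cells; marker shapes give the replicate number and black bars the group means. The groups overlap for every gene, MSH3 lies below 3 CPM throughout, and replicate 3 is the lowest PMS2 library in both groups.

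The log2 differences between MS275 and DMSO were -0.09 for MSH6, -0.04 for MSH3, 0.10 for PMS1, 0.16 for PMS2, -0.10 for MLH3 and 0.07 for EXO1 (edgeR, adjusted p 0.986 to 0.996). None of the 6 was called, where 0.00668% of 14961 genes tested, a single gene, were called and 6.60% had an unadjusted p under 0.05. Cultures with the same replicate number deviated together, and with that number as a block 14.4% of genes were called, 7.83% higher and 6.55% lower. Still none of the 6 was called. The blocked differences were -0.06 for MSH6 (95% interval -0.25 to 0.13), 0.05 for EXO1 (-0.18 to 0.28), 0.16 for PMS1 (-0.10 to 0.42) and -0.12 for MLH3 (-0.56 to 0.31). PMS2 gave 0.36 (-0.10 to 0.81) and MSH3 -0.02 (-1.18 to 1.14). In the blocked fit the intervals of MSH6, EXO1 and PMS1 exclude changes as large as 0.5 on the log2 scale in either direction. That of MSH3, the least counted, excludes little. Without the block the intervals were -0.69 to 0.51 for MSH6, -0.51 to 0.64 for EXO1 and -0.58 to 0.79 for PMS1. Those do not exclude changes of 0.5. For PMS2 the paired difference was 1.41 in replicate 3 and between -0.13 and 0.34 in the others, and without replicate 3 the blocked value was 0.06. In bulk RNA, fewer cells of a type and less RNA per cell cannot be told apart.

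Genes that act with or after the MutS and MutL complexes were read from a list. Of its 15 genes, those for clamp, clamp loader, single-strand binding, synthesis and ligation and the chromatin protein HMGB1, 0 were higher and 2 lower with the block (7.83% and 6.55% of all genes), with a median log2 difference of -0.10 against 0.01 over all genes. PCNA, the sliding clamp, fell by 0.29 (SE 0.0634, adjusted p = 0.00949, lower in 4 of 4 pairs) and RFC2, a subunit of the clamp loader, fell by 0.29 (SE 0.0827, adjusted p = 0.0370, lower in 4 of 4 pairs). Without the block neither was called (adjusted p 0.910 and 0.915). The meiotic MutS genes MSH4 and MSH5 were not called (log2 1.09 with SE 1.56, and 0.06 with SE 0.193). Of the neighbours ORMDL1 (-0.08), AIMP2 (-0.31) and FBXO11 (0.06), none was called, the nearest being AIMP2 with an adjusted p of 0.0644 in the blocked fit.

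Cell cycle lists were read beside these values, since repair genes are expressed with replication. With the block 9 of 20 S phase genes were lower and 0 higher (6.55% and 7.83% of all genes, median log2 -0.23), the largest decreases being CDC45, a component of the replicative helicase, by 0.52 (SE 0.144, adjusted p = 0.0313) and TYMS, thymidylate synthase, by 0.45 (SE 0.0659, adjusted p = 0.00122). Of 15 G2 and M phase genes, read against the same shares, 5 were higher, led by the kinesin CENPE (log2 0.40, SE 0.0961, adjusted p = 0.0164) and the proliferation marker MKI67 (0.29, SE 0.0686, adjusted p = 0.0152), and 4 lower, led by the mitotic kinase PLK1, which fell by 0.32 (SE 0.0703, adjusted p = 0.0102), and by the cyclin CCNB1, which fell by 0.31 (SE 0.0614, adjusted p = 0.00614). Without the block none of these 35 genes was called. The 6 mismatch repair genes had a blocked median of 0.01, equal to that of all genes.

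MSH3 had the lowest mean RNA level of the 6 genes in HCT116. Levels per length were computed as CPM per kb of annotated exon. In DMSO the order was EXO1 at 9.0 ± 2.55 (SD, n = 4), PMS1 at 6.21 ± 2.57, MSH6 at 4.77 ± 1.77, PMS2 at 1.51 ± 0.88, MLH3 at 1.35 ± 0.326 and MSH3 at 0.335 ± 0.0892. Libraries of EXO1 and PMS1, of PMS1 and MSH6, and of PMS2 and MLH3 overlapped in range, whereas MSH6 lay above PMS2 and MLH3 above MSH3 in every library. PMS2 and MSH3 overlapped too, since PMS2 in DMSO replicate 3 (0.241) lay below every MSH3 library. MSH3 was at the 29.3th percentile of genes with a count, and the other 5 at the 41.4th to the 73.6th. In MS275 the order was unchanged, with EXO1 at 9.56 ± 3.64 and MSH3 at 0.331 ± 0.0709. Per kb of the longest transcript instead, MSH6 (11.0) came before EXO1 (10.8) and PMS1 (9.90) in DMSO, and MSH3 (0.397) remained last. The deposited MSH6 interval begins far upstream of its main start, so its count and its exon length (17722 bases, against 7669 in the longest transcript) may take in other transcripts.

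The start peak of MSH3 in HCT116, which also covers another gene's start, was at the 60.1th percentile of start peaks in H3K18cr over input with DMSO. The intervals of ORMDL1 and PMS1 overlap at their starts, and those of MSH6 and FBXO11 at their ends. The kit makes stranded libraries, and the strand setting of the counting step is not given in the sources used here, so reads from such overlaps may be assigned to either gene.

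In colon the order of levels per length differed. Msh6 came first at 11.6 ± 0.760 (SD, n = 3; 12.4, 11.2 and 11.1 in the single libraries). Mlh3 followed at 2.64 ± 0.828 (1.69, 3.18 and 3.06), with Msh3 at 2.04 ± 0.0453 (2.09, 2.02 and 2.01). Exo1 was at 1.40 ± 0.0981 (1.51, 1.32 and 1.38) and Pms2 at 1.30 ± 0.184 (1.36, 1.09 and 1.45). Pms1 was lowest at 0.452 ± 0.0629 (0.438, 0.520 and 0.396), from 27 to 42 raw counts. Ranges overlapped between Mlh3 and Msh3 and between Exo1 and Pms2 only. Per kb of the longest transcript Msh3 (5.39) came before Mlh3 (3.65) and Pms2 (1.71) before Exo1 (1.52). Msh6 was 25.9 ± 3.83 times as high as Pms1 and 8.23 ± 0.238 times as high as Exo1, whereas in HCT116 with DMSO the same ratios were 0.819 ± 0.227 and 0.521 ± 0.0894. Per kb of the longest transcript these ratios were 10.7 ± 1.59 and 7.78 ± 0.226 in colon and 1.19 ± 0.329 and 1.003 ± 0.172 in HCT116, so the HCT116 ratios turned from below 1 to at or above 1 with the length used. Organism, annotation, library depth and growth state all differ between the tables, so these are descriptions set side by side and were not tested.

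**Figure D4:**
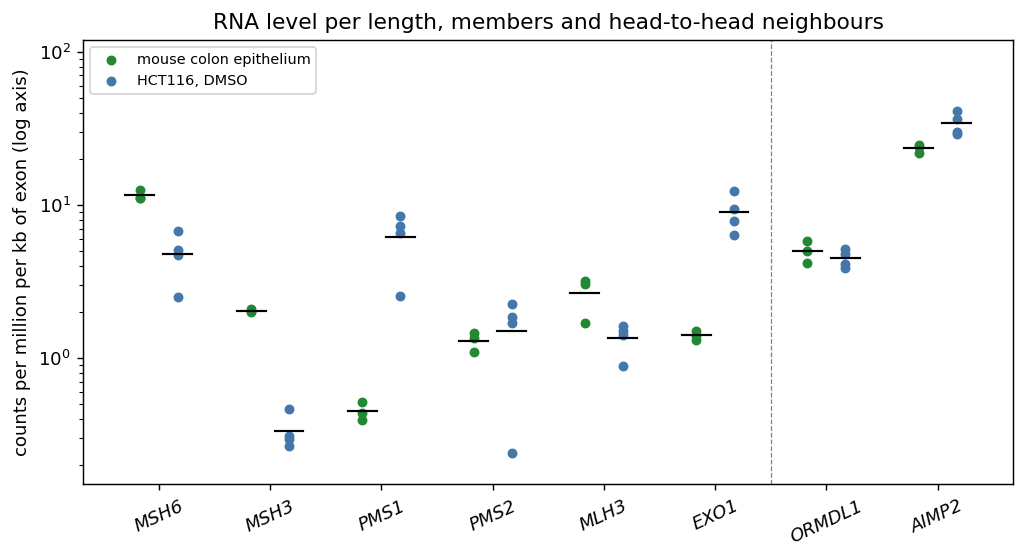
CPM per kb of annotated exon (log axis) in 3 mouse colon libraries (green) and 4 HCT116 DMSO libraries (blue) for the 6 genes and, right of the dashed line, the genes sharing a start peak with PMS1 (ORMDL1) and PMS2 (AIMP2); black bars are means. MSH3 has the lowest mean in HCT116 at 0.335, and in colon Pms1 has the lowest at 0.452 and Msh3 is at 2.04.

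In colon epithelium the mean H3K18cr ratio to input at the 6 starts was below that of most starts. Log2 ratios to the matched input (pseudocount of 1 scaled read) were 1.45 and 1.23 at Msh6, 1.03 and 1.65 at Pms1, and 1.16 and 1.53 at Exo1. They were 1.18 and 0.90 at Mlh3, 1.36 and 0.56 at Pms2, and 0.82 and 1.00 at Msh3. The mean was thus 0.91 to 1.34 at the 6 genes, with a median of 1.19, against a median of 1.50 over 11435 start peaks and 1.22 over 18903 other peaks. All 6 lay below the start peak median, from the 2.62th percentile at Msh3 and the 4.12th at Pms2 to the 32.8th at Exo1. The 2 libraries differed by 0.80 at Pms2 and 0.63 at Pms1, and in opposite directions, so the order of the genes is not resolved. In the first library Msh6 (1.45) lay above that library's start peak median (1.36), and in scaled reads per kb the 6 starts ranged from the 0.822th percentile at Msh3 to the 59.4th at Pms1. In GRCm38 these peaks lay at chr17:87974251-87976200 (Msh6), chr13:92353951-92355750 (Msh3), chr1:53296501-53297850 (Pms1), chr5:143908501-143910150 (Pms2), chr12:85270051-85271100 (Mlh3) and chr1:175880251-175881000 (Exo1). As in the human list, those of Pms1 and Pms2 also covered the starts of Ormdl1 and Aimp2, and that of Msh3 covered another gene's start. The 7th peak was exonic in Pms2 (chr5:143931751-143932650), with ratios of 0.81 and 1.00.

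H3K4me3, a mark of active promoters, was high at Msh6. Scaled reads there were 246, 399 and 530, against 34.0 in the input, and the mean log2 ratio of 3.42 ± 0.559 (SD, n = 3) was at the 95.4th percentile of 14457 start peaks. Pms1 followed at 2.89 ± 0.725 (77.0th percentile) and Exo1 at 2.64 ± 0.529 (63.7th). Msh3 was at 2.30 ± 0.586 (46.1th), Mlh3 at 2.13 ± 0.549 (38.4th) and Pms2 at 2.06 ± 0.661 (35.7th). At all 6 starts library 3 was the highest and library 1 the lowest, as for the medians of all start peaks (1.77, 2.50 and 2.88), so the spread between libraries was shared with other genes. Msh3 combined a near-median H3K4me3 with a low H3K18cr ratio. A small 7th peak of 300 bases within an intron of Msh3 (chr13:92268151-92268450) had 23.0, 32.1 and 13.5 scaled reads against 7 in the input.

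**Figure D5:**
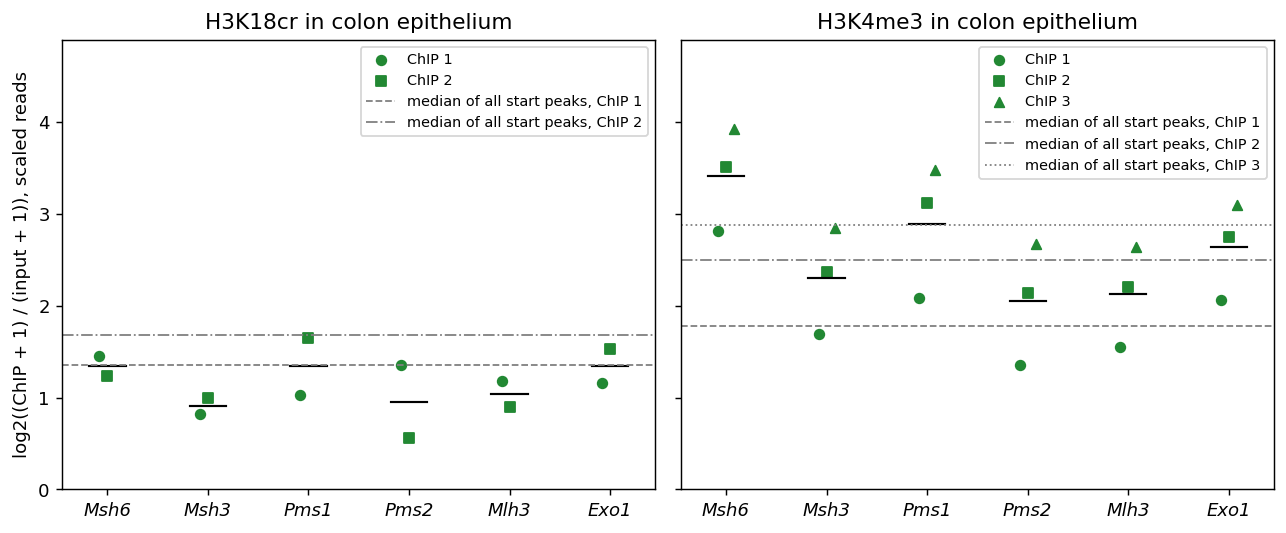
Log2 ratio of ChIP to input in scaled reads (y axis, pseudocount 1) at the 6 start peaks in mouse colon epithelium for H3K18cr (left, 2 libraries) and H3K4me3 (right, 3 libraries); points are libraries, black bars means, and dashed or dotted lines each library's median over all start peaks. For H3K18cr the means are 0.91 to 1.34, and for H3K4me3 Msh6 stands highest at 3.42.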

How the data were processed

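The authors deposited raw gene counts for RNA and, for ChIP, reads per peak over 1 list of MACS peaks per table. Per the study's methods, reads were trimmed, aligned to GRCh38 or GRCm38, filtered on mapping quality and quantified in SEQMONK; the submitters' processing notes name Trim Galore 0.4.2, TopHat2 2.0.12 and Bowtie2 2.2.5. The deposited colon values are a signal (read coverage per peak times 1 factor per library), and the deposited HCT116 values are log2 of such scaled reads, in which a peak without reads holds log2 of 0.9 reads. Apart from peaks without reads, every ChIP value was a whole number of reads after division by its library's factor (tolerance 0.05), and factors ranged from 1.0 to 2.67.

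RNA was tested with edgeR 4.0.16 (quasi-likelihood, TMM, filterByExpr) and peaks with limma 3.58.1 on the deposited log2 values of peaks with at least 10 reads in 3 libraries, with Benjamini-Hochberg adjustment over all features. Intervals are 95% intervals of these fits and cover the spread between libraries. DESeq2 1.42.0, edgeR on recovered reads, median centring, no filter, a replicate block and leaving out replicates were alternatives. Same-numbered RNA libraries deviated together (correlations 0.226, 0.151, 0.433 and 0.460 for numbers 1 to 4), so the blocked fit is given beside the RNA results. The tests were checked on simulated data. Log2 ratios to input used a pseudocount of 1 scaled read. Exon lengths came from GENCODE. Starts were those of coding transcripts.

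The members and gene lists were chosen with earlier results of these data known. Text names all members, the neighbours (1 is not reported here) and, of other lists, at most 2 rises and 2 decreases past the threshold. Libraries of a group are separate cultures per the study's methods for HCT116 RNA; where nothing says so, p-values measure the spread between libraries, which may be technical.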

Additional observations from a re-analysis of the deposited data

Results flagged for a closer look

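In 4 of 12 RNA groups (6 genes, 2 treatments) a single HCT116 library stood outside the other 3 by Dixon's ratio of gap to range at the 95% level; chance flags about 1 in 20 groups. Over all genes tested with no count of 0, 7.41% of DMSO and 7.59% of MS275 groups were so placed, 72.2% and 71.8% of them by replicate 3. For PMS2 it was replicate 3, low in both DMSO (ratio 0.835) and MS275 (0.846). For MSH3 it was DMSO replicate 3, high (0.867). For EXO1 it was MS275 replicate 1, high (0.846). Replicate 3 had the lowest normalisation factors of its group, 0.887 with DMSO and 0.881 with MS275, and the part of this in the values was not tested.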

How the results depend on the processing

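No member's RNA was called under any setting run. Over all genes 1 RNA call became 13 without the filter, 161 with DESeq2, 2151 with the replicate block, 2610 with DESeq2 and the block, and 8 without replicate 3 in either group; the last 2 settings were chosen after seeing the data. Leaving out 1 library from the fit without the block gave 0 to 1, and leaving out 1 number from the blocked fit gave 968 (without number 1) to 2584 (without number 3). The member RNA values, all uncalled, changed sign when replicates were left out of either fit: MSH6 -0.27 to 0.14, MSH3 -0.18 to 0.24 (0.14 without replicate 3 in either group), PMS1 -0.13 to 0.27, PMS2 -0.19 to 0.54, MLH3 -0.26 to 0.094 and EXO1 -0.21 to 0.26. H3K18cr calls (5750 peaks) became 5468 with edgeR, 0 with median centring and 0 to 10380 without 1 replicate number. H3K18ac calls (4765) became 8549 with edgeR, 3118 with the replicate block and 0 to 10823 without 1 number. Differences between the marks (0) became 0 to 4. Same-numbered ChIP libraries had correlations of 0.111, 0.0787 and 0.241 in H3K18cr and of -0.207, 0.0487 and -0.136 in H3K18ac (numbers 1 to 3). With the block the H3K18ac call at EXO1 was lost (adjusted p = 0.0623). An MSH3 intronic peak was then called in H3K18cr (adjusted p = 0.0464), and the other start peak calls stood. Without 1 number the sign changed, uncalled, for H3K18cr at the MSH3 peak near its end (-0.033 to 0.33), for H3K18ac at MLH3 (-0.45 to 0.071) and for the difference between marks at MSH6 (-0.12 to 0.59), MSH3 (-0.45 to 0.44), PMS1 (-0.21 to 0.57), PMS2 (-0.51 to 0.37) and EXO1 (-0.13 to 0.35); at MLH3 it stayed below 0 (-0.98 to -0.091), and without replicate 1 (-0.33) or 2 other genes stood farther from 0. Without replicate 3 the MLH3 start and the MSH6 intronic peak were called in H3K18cr (adjusted p 0.0212 and 0.0462), and without replicate 1 the MSH3 start in H3K18ac (0.00126). Per kb of the longest transcript the median level of the 6 genes moved from 3.14 to 6.19 (DMSO), 3.12 to 6.66 (MS275) and 1.72 to 2.68 (colon), since these lengths are shorter. Peak counts were the same without the 2 kb margin, and a pseudocount of 10 left the colon ratios within the spread between libraries. Causes were not tested. Depth limits MSH3 in HCT116 (53 to 97 counts per library) and Pms1 in colon (27 to 42).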
